A study of Mus musculus with 7 samples.

Results

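Ago2-bound miRNAs in plasma collected 2 weeks after status epilepticus (SE) were compared with those of control plasma. All miRNAs with at least 50 CPM (the count of a miRNA scaled to a library of 1000000 counts) in the 2-week SE library or in the 24 h control library were taken, which gave 156 of the 640 miRNAs counted in the series. Of these, 119 reached this level in both libraries, 22 only in the 2-week library and 15 only in the control. A miRNA of the last 2 kinds was admitted through the library in which it was high, so its difference between the libraries is in part a product of the choice.

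The series profiled small RNA bound to Ago2, eluted from the plasma of adult male mice (strain c57, C57BL/6JOlaHsd in the methods). SE mice received kainic acid in the amygdala followed by midazolam or lorazepam, and control mice received PBS by the same route. Plasma from 10 mice was pooled for each of 7 libraries, with 1 library per condition, namely control after 4, 8 or 24 h and SE after the same times and after 2 weeks. According to the methods the 2-week control failed quality control, and the 24 h control took its place, so kainic acid, the time since injection and the library itself cannot be told apart in any 2-week difference. Mice of this model typically have spontaneous seizures by 2 weeks, but no label gives the seizures of the pooled animals, and no library has a replicate.

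Most miRNAs in cell-free plasma are protected from degradation by a protein or a vesicle, and Ago2, the Argonaute protein that holds a miRNA against its target mRNA and can cut the target, is a major carrier. Blood cells, endothelium, muscle and liver supply much of this pool, and brain miRNAs can enter it when the blood-brain barrier opens. A miRNA recognises its targets mainly through the seed, bases 2 to 8 from its 5′ end, so miRNAs of 1 seed form a family with shared targets.

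The sequences that carry the comparison are those of the miR-181 family, of the miR-10 and miR-125 seed families, and of single miRNAs far outside the controls. RefSeq (GRCm38.p6) gave a mature sequence for 133 of the 156 miRNAs, and host genes are those of the GENCODE vM21 annotation on the same strand. Lower case is used except for the seed, which is in capitals. The miR-181 5p arms share 1 seed, while their 3p arms hold 3 different seeds, and all 8 arms are shown because members of the family differed in direction.
miR-181a-5p: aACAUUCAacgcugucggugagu
miR-181b-5p: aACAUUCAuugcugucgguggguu
miR-181c-5p: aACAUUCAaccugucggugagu
miR-181d-5p: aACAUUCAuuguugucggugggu
miR-181a-1-3p: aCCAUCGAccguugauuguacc
miR-181c-3p: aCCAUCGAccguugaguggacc
miR-181a-2-3p: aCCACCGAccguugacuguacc
miR-181b-2-3p: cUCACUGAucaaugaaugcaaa

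miR-181a-5p is encoded at chr1:137966468-137966490 (plus strand, in an intron of the transcript Gm4258) and again at chr2:38852741-38852763 (plus strand, no host gene). miR-181b-5p follows it at both places, at chr1:137966650-137966673 and chr2:38853845-38853868. The 3p arm miR-181a-1-3p comes from the first hairpin (chr1:137966508-137966529), whereas miR-181a-2-3p (chr2:38852785-38852806) and miR-181b-2-3p (chr2:38853883-38853904) come from the second place. miR-181c and miR-181d lie on the minus strand within an intron of Nanos3, with miR-181c-5p at chr8:84178924-84178945, miR-181c-3p at chr8:84178885-84178906 and miR-181d-5p at chr8:84178759-84178781.

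The next set is shown because each of its 2 seeds had all of its members above the controls. The same was true of the seed shared by miR-192-5p and miR-215-5p, which is not shown. Over all 156 miRNAs, 42.3% were above the controls, and each of these seeds has few members. The seed of miR-10a-5p and miR-10b-5p differs from that of miR-125a-5p, miR-125b-5p and miR-351-5p.
miR-10a-5p: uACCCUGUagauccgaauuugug
miR-10b-5p: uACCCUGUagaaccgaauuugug
miR-125a-5p: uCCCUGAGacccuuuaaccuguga
miR-125b-5p: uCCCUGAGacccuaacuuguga
miR-351-5p: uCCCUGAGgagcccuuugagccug

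miR-10a-5p (chr11:96317186-96317208, plus strand) had no host gene in the annotation, and miR-10b-5p (chr2:74726074-74726096, plus strand) lies in introns of Hoxd3 and Hoxd4. miR-125a-5p (chr17:17830817-17830840, plus strand) overlaps an exon of Spaca6, and miR-351-5p (chrX:53053315-53053338, minus strand) has no host gene. miR-125b-5p has a copy at chr16:77646279-77646300 in an intron of Mir99ahg and another at chr9:41581940-41581961, both on the plus strand.

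The last set holds let-7i-5p and miR-19b-3p, which the study followed up at 2 weeks, and the miRNAs that differed most from every control.
let-7i-5p: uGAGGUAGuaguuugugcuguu
miR-19b-3p: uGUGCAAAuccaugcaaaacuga
miR-301a-3p: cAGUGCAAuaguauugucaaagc
miR-339-5p: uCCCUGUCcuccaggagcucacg
miR-298-5p: gGCAGAGGagggcuguucuuccc
miR-106b-5p: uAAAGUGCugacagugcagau
miR-28a-5p: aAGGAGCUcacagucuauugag
miR-28a-3p: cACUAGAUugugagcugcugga
miR-322-3p: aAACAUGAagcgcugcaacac
miR-378c: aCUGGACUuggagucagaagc

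let-7i-5p (chr10:122985698-122985719, minus strand), miR-298-5p (chr2:174267553-174267575, minus strand), miR-322-3p (chrX:53054269-53054289, minus strand) and miR-378c (chr14:46954905-46954925, minus strand) had no host gene. miR-19b-3p has a copy in an exon of Mir17hg (chr14:115044358-115044380, plus strand) and a copy at chrX:52741991-52742013. Several lie in introns of protein-coding genes, namely miR-301a-3p in Ska2 (chr11:87113054-87113076, plus strand), miR-106b-5p in Mcm7 (chr5:138165787-138165807, minus strand), and both arms of miR-28a in Lpp (chr16:24827868-24827889 and chr16:24827908-24827929, plus strand). miR-339-5p lies in an intron of 3110082I17Rik (chr5:139369708-139369730, minus strand).

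The 2-week library held 2541062 counts, against 2043220, 3529563 and 3412752 in the controls (4, 8 and 24 h), and between 3166964 and 5405357 in the acute SE libraries. A level of 50 CPM was 127 counts in the 2-week library and 171 in the 24 h control. Low counts gathered around 33.1 reads in the 2-week library and 55.1 reads in the 24 h control, so that 50 CPM stood 3.84 and 3.10 times above that level. In the 4 h control they gathered around 102 reads, which was itself 50.04 CPM, and this library was the lowest of the 3 controls for 98 of the 156 miRNAs. Counts of a single red-cell miRNA dominated throughout. miR-486b-5p, an erythroid miRNA, took 63.2% of the counts at 2 weeks (95% Wilson interval 63.2 to 63.3, counting error only) and 76.1%, 67.5% and 67.0% in the controls (4, 8 and 24 h), and the identical-family entry miR-486a-5p had 0 counts in all 4. miR-451a, also a red-cell miRNA, was scarce, with 46 counts at 2 weeks (18.1 CPM) and 3, 39 and 81 counts in the controls (4, 8 and 24 h). The ratio of miR-451a to miR-23a-3p counts, a measure of red cell lysis, therefore rests on low counts. It was 0.0556 at 2 weeks and ranged from 0.00575 to 0.0827 in the controls, and the part of lysis in the differences was not tested.

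Across miRNAs that passed 50 CPM in both, the 2-week plasma was closest to the 24 h control. No other library had to pass that level, so this closeness is in part a product of the choice. Over the 119 miRNAs at 50 CPM or more in both, the levels of these 2 libraries gave a Spearman rho of 0.968, against 0.921 with the 8 h control and 0.858 with the 4 h control. The acute SE libraries gave 0.881 at 4 h, 0.876 at 8 h and 0.934 at 24 h. These are correlations across miRNAs, which share their libraries. The median miRNA differed 1.24-fold from the 24 h control, 1.34-fold from the 8 h control and 1.74-fold from the 4 h control (115 miRNAs with a count) in either direction. For the 24 h SE library the corresponding value was 1.62-fold, and the plot of the 2 compared libraries shows a narrow band at high levels that widens below 100 CPM.

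**Figure D1:**
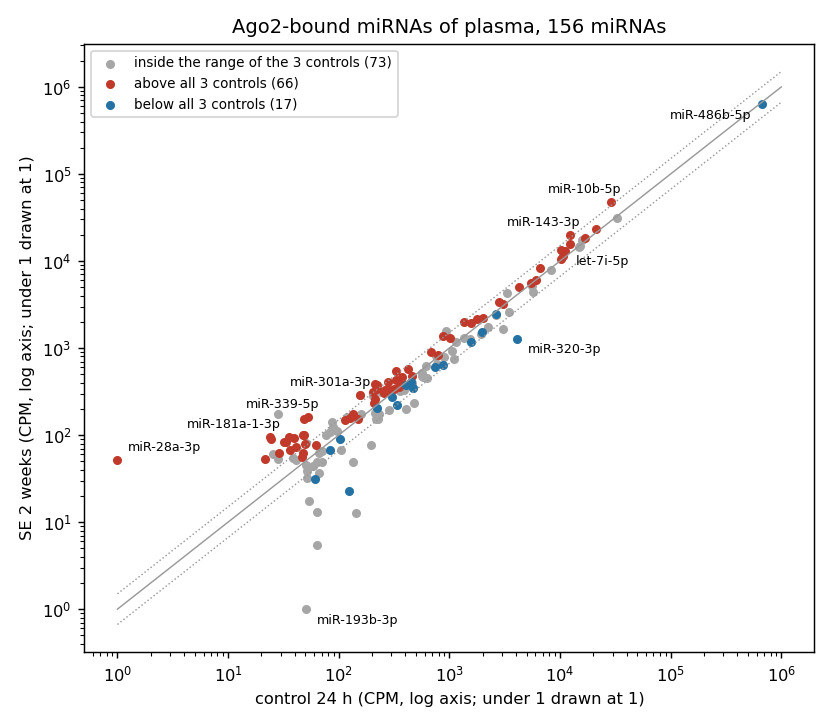
Level of each of the 156 miRNAs in the 24 h control (x axis, CPM, log scale) and in the 2-week SE library (y axis, CPM, log scale), 1 library each; the solid line marks equal levels, the dotted lines 1.5-fold differences, and colours the place of the 2-week level against all 3 controls. Points hug the line above 1000 CPM, where miR-320-3p lies below the lower dotted line, and scatter at low levels, where miR-28a-3p and miR-193b-3p each had 0 counts in 1 library.

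The call rule was edgeR's exact test at settings taken from the study. These were a fixed biological coefficient of variation of 0.1, unadjusted p under 0.05 and at least 1.5-fold. By this rule, 32 of the 156 miRNAs were higher at 2 weeks than in the 24 h control (20.5%) and 17 were lower (10.9%). The study itself reported fewer differing miRNAs at 2 weeks than the 49 called here, and the reason was not tested. The exact test compares 2 libraries, not 2 conditions. Over the same miRNAs the test called 20 higher (12.8%) and 77 lower (49.4%) in the 4 h control than in the 24 h control, and 23 higher (14.7%) and 39 lower (25%) in the 8 h control. These 97 (62.2%) and 62 (39.7%) calls between controls outnumber the 49 (31.4%) between SE at 2 weeks and control. Of the calls, 18 higher and 10 lower were miRNAs that had reached 50 CPM in 1 library only, and among the 119 in both, 14 were higher and 7 lower. Calls depended on level, with 14.0% of the 43 miRNAs at a mean of 1000 CPM or more called, 20.6% of the 68 between 100 and 1000 CPM and 64.4% of the 45 under 100 CPM. With library totals taken without miR-486b-5p, the split turned from 32 higher and 17 lower to 23 higher and 28 lower, and the median log2 fold change of all miRNAs moved from 0.08 to -0.07.

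The 3 controls gave a second yardstick. The 2-week level was above all 3 for 66 miRNAs (42.3%), below all 3 for 17 (10.9%) which made 83 outside (53.2%) and 73 inside their range. It lay 1.5-fold or more beyond the nearest control for 12 above (7.69%) and 4 below (2.56%). In comparison, 22 miRNAs were above (14.1%) and 45 below (28.8%) in the SE library at 4 h, 42 above (26.9%) and 34 below (21.8%) at 8 h, and 11 above (7.05%) and 61 below (39.1%) at 24 h, with the same 3 controls used throughout. Both criteria were met by 25 miRNAs that were higher and above (16%) and by 4 that were lower and below (2.56%). Under all 4 scalings of the libraries (totals, totals without miR-486b-5p, TMM and DESeq2 size factors), 33 miRNAs stayed above and 16 stayed below, and these included all 12 and all 4 that lay 1.5-fold beyond the controls.

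Of the 5 miRNAs with the highest mean over the 2-week and 24 h control libraries, 4 lay within 1.5-fold of the 24 h control, among them miR-486b-5p. let-7f-5p, of the let-7 family of differentiation-linked miRNAs, was at 31015 CPM at 2 weeks and at 16228, 29864 and 32895 in the controls (4, 8 and 24 h), inside their range. miR-191-5p was at 23462 CPM (controls 7474, 11587 and 21118), and miR-192-5p, a miRNA of gut, liver and kidney epithelium, at 18503 (controls 10276, 16384 and 16700). Both were above the 3 controls by a small margin. miR-10b-5p, encoded in a Hox gene cluster, was the other of the 5. It was at 48030 CPM at 2 weeks and at 43291, 42870 and 28873 in the controls, so it was 1.66-fold above the 24 h control but 1.11-fold above the nearest control.

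Among miRNAs detected in both libraries, those furthest above the controls belonged to several families. miR-339-5p was at 160 CPM at 2 weeks and at 45.0, 58.9 and 53.0 CPM in the controls (4, 8 and 24 h), which was 3.02-fold above the 24 h control and 2.72-fold above the highest control. miR-301a-3p, of the miR-130 seed family, was at 285 CPM against 46.0, 163 and 156 (1.83-fold above the 24 h control). miR-19b-3p, of the miR-17-92 cluster, was at 377 CPM against 164, 205 and 223 (1.69-fold). In each case the controls did not reach the 2-week level, and neither did any acute SE library, where miR-339-5p ranged from 14.6 to 64.3 CPM, miR-301a-3p from 106 to 149 and miR-19b-3p from 57.9 to 251. These were the only members present in both libraries that lay 1.5-fold above every control.

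The other increases named by size were closer to the controls. miR-143-3p, abundant in smooth muscle, was at 19936 CPM against 11034, 14252 and 12193 in the controls (4, 8 and 24 h) (log2 fold change 0.71 over the 24 h control). Its acute SE levels were higher at 4 h (32539 CPM) and 8 h (22575 CPM) and lower at 24 h (9751 CPM). miR-532-5p was at 342 CPM against 99.4, 251 and 222 (log2 fold change 0.62). miR-125a-5p, a mammalian lin-4 homologue, was at 539 CPM against 440, 357 and 331 (0.70), and miR-2137 at 313 against 312, 281 and 202 (0.63). The 2-week level of miR-2137 thus matched that of the 4 h control, and miR-10b-5p, miR-125a-5p and miR-2137 did not stay above the controls under all 4 scalings, while the other 7 of the 10 named increases did.

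let-7i-5p and miR-19b-3p are the miRNAs that the study took on to further assays at this time-point. In additional plasma samples it reported both as higher in Ago2 elutions after SE than in controls. It also used mice with tagged Ago2 in neurons or in microglia. There it reported miR-19b-3p as raised after SE in both lines, and let-7i-5p in the microglial line only. The values below come from the sequenced libraries alone. let-7i-5p was at 13181 CPM at 2 weeks and at 4937, 9842 and 11037 CPM in the controls (4, 8 and 24 h), and the acute SE libraries held 6428, 5983 and 8319. It was above all 6 other libraries, yet only 1.19-fold above the 24 h control, short of 1.5-fold. The let-7 family of 9 members had 0 calls in either direction and a median log2 fold change of -0.08, beside 0.08 for all 156 miRNAs, with 3 members above the controls and 1 below. let-7b-5p was the member below, at 600 CPM against 729, 707 and 748.

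**Figure D2:**
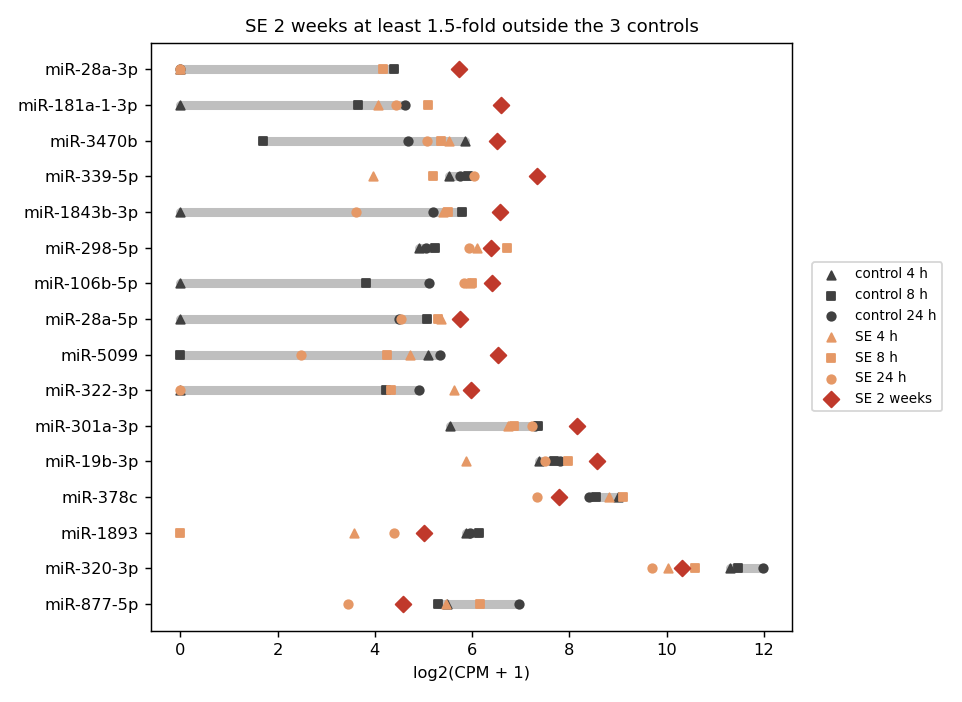
The 16 miRNAs whose 2-week level lay at least 1.5-fold outside the 3 controls, drawn as log2(CPM + 1) in each of the 7 libraries (1 point per library), with a grey band from the lowest to the highest control. The 2-week point (red diamond) lies right of the band for 12 miRNAs and left of it for 4, and for miR-320-3p and miR-298-5p the acute SE points lie on the same side as the 2-week point.

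Of the 12 miRNAs 1.5-fold above every control, 9 had reached 50 CPM in the 2-week library only, so their direction against the 24 h control follows from the choice. miR-28a-3p had 133 counts at 2 weeks (52.3 CPM) and 0 counts in the 24 h control, at least 59.5-fold higher against a floor of 3 counts, but it was at 20.1 CPM in the 8 h control and 17.1 CPM in SE at 8 h. Its opposite arm miR-28a-5p was at 53.1 CPM against 0, 32.6 and 21.7. miR-106b-5p, a relative of miR-17 from the Mcm7 intron, was at 83.8 CPM against 0, 13.0 and 33.4, and the acute SE libraries held 60.9, 62.5 and 55.9. All 4 SE libraries were thus above the 3 controls for miR-106b-5p. The same held for miR-298-5p, from the imprinted Gnas region, at 82.6 CPM at 2 weeks, 67.2, 105 and 60.5 in acute SE, and 28.9, 36.6 and 31.9 in the controls. The other 5 were miR-181a-1-3p, miR-322-3p, miR-1843b-3p, miR-3470b and miR-5099, between 61.8 and 96.0 CPM at 2 weeks.

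The clearest decrease was that of miR-320-3p, which is made without Drosha from a capped hairpin. It was at 1272 CPM at 2 weeks and at 2531, 2819 and 4054 CPM in the controls (4, 8 and 24 h), and at 1041, 1536 and 834 CPM in the acute SE libraries. The 4 SE libraries did not overlap the 3 controls, and the 2-week level was 3.19-fold below the 24 h control and 1.99-fold below the lowest control. miR-378c was at 220 CPM against 510, 374 and 339 in the controls (log2 fold change -0.62), and at 451, 547 and 161 in acute SE. Its relative miR-378a-3p was at 2492 CPM, just below the controls at 2517, 3587 and 2617.

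miR-877-5p, a mirtron released by splicing of the Abcf1 intron, and miR-1893 were also 1.5-fold below every control, but each reached 50 CPM in the control only. miR-877-5p was at 22.8 CPM (58 counts) against 44.0, 38.2 and 124 CPM, and miR-1893 at 31.1 CPM against 57.3, 70.0 and 61.5. The other named decreases lay within 1.5-fold of the 24 h control. miR-5108 was at 343 CPM against 685, 575 and 470, miR-1957a at 646 against 899, 731 and 873, miR-6236 at 1166 against 1602, 2122 and 1573, and miR-6240 at 1533 against 1849, 2818 and 1975. miR-152-3p, of the miR-148 family, was at 66.9 CPM against 76.8, 171 and 84.1, miR-3960 at 90.9 against 185, 246 and 102, and let-7d-3p at 372 against 523, 649 and 408. All 10 named decreases stayed below the controls under the 4 scalings.

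The miR-181 family, known from lymphocyte development and also expressed in brain, had all 8 counted arms among the 156 miRNAs. Of these 3 were called higher (20.5% over all 156), 1 was called lower (10.9%), 5 were above the controls (42.3%) and the median log2 fold change was 0.43. Without miR-181a-1-3p, which passed 50 CPM at 2 weeks only, the median was 0.39, beside 0.04 over the 119 miRNAs in both. The 5p arms are the abundant ones. miR-181a-5p was at 15604 CPM at 2 weeks against 6819, 12903 and 12320 in the controls (4, 8 and 24 h), miR-181b-5p at 1387 against 724, 1078 and 878, and miR-181d-5p at 430.5 against 299.5, 189 and 328. Each was above every control and every acute SE library, although only miR-181b-5p was called (log2 fold change 0.66). miR-181c-5p, of the same seed, differed from them, at 1256 CPM against 502, 918 and 1535, inside the control range.

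The 3p arms of the family were also split. miR-181b-2-3p was at 382 CPM against 194, 299 and 214 (log2 fold change 0.83), and miR-181a-1-3p at 96.0 CPM (244 counts) against 0, 11.6 and 23.7, 4.05-fold above the highest control. Both were above all other libraries. miR-181a-2-3p, at 163 CPM, lay inside the control range of 119 to 319 CPM. miR-181c-3p, at 67.7 CPM against 0, 95.8 and 104, was called lower than the 24 h control but also lay inside the range. Both arms of the miR-181c hairpin thus lay inside the range, but miR-181d-5p, from the same intron of Nanos3, was above it.

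**Figure D3:**
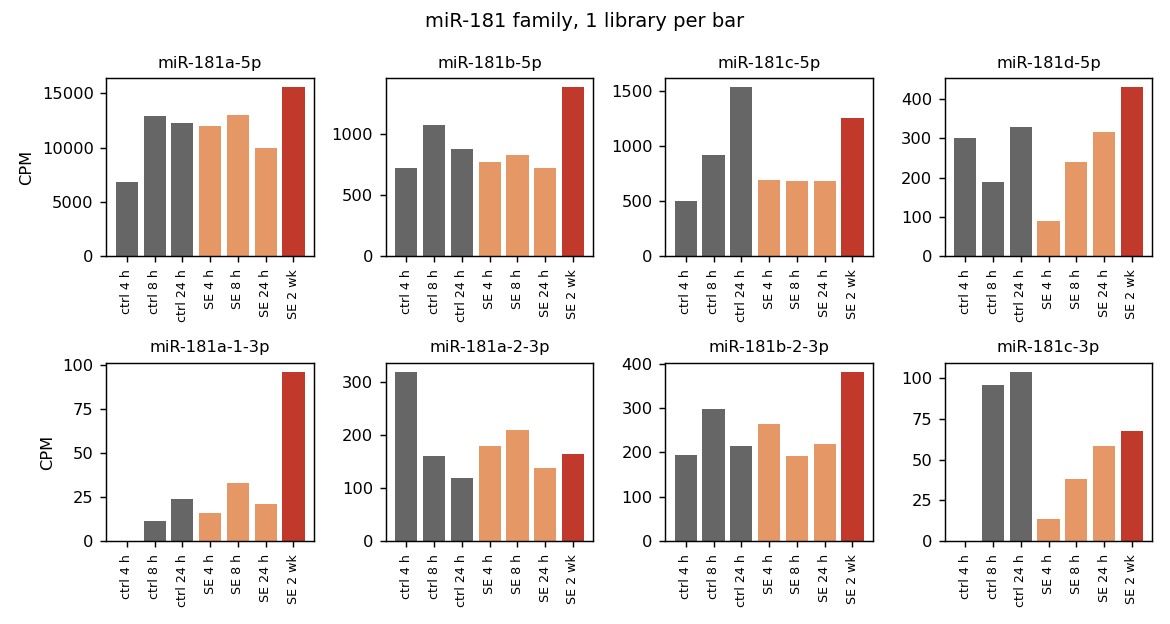
CPM of the 8 arms of the miR-181 family in the 7 libraries, 1 library per bar, with controls in grey, acute SE in orange and SE at 2 weeks in red; each panel has its own axis from 0. The red bar is the tallest for miR-181a-5p, miR-181b-5p, miR-181d-5p, miR-181a-1-3p and miR-181b-2-3p, and not for the other 3.

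Other seed families gave counts as follows. The 3 miRNAs with the lin-4 seed were all above the controls (42.3% over all 156), but miR-125b-5p was level with its highest control (78.3 CPM at 2 weeks and 78.3 at 4 h, with 73.7 at 8 h and 49.5 at 24 h), and miR-351-5p was at 331 CPM against 87.6, 202 and 261. Both members of the miR-10 seed were above (42.3% over all 156), with miR-10a-5p at 13293 CPM against 6986, 9745 and 10179, although both were higher still in SE at 4 h and 8 h (16229 and 15951 CPM for miR-10a-5p). Among 4 members of the miR-15/16 seed 0 were above (42.3% over all 156), 2 were called lower (10.9%), and the median was -0.68. miR-322-5p had passed 50 CPM in the control only, and over the other 3 the median was -0.35 with 1 called lower. miR-15a-5p was at 200 CPM against 161, 268 and 402, and miR-322-5p at 49.6 against 53.8, 48.7 and 133, so both lay inside the range of the controls. Names that differ by few bases, as within the let-7, miR-10, miR-15 and miR-181 families, could share reads, because up to 2 mismatches were allowed when reads were assigned.

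Cell and tissue classes that the study compiled from the literature for miRNAs of these libraries are not independent of the samples. The 9 miRNAs listed as oligodendrocyte-enriched, the myelin-forming cells, had a median log2 fold change of 0.62, beside 0.08 for all 156. Of them 5 were called higher (20.5% over all 156) and 0 lower (10.9%), and 7 were above the controls (42.3%). miR-322-3p and miR-28a-5p had passed 50 CPM at 2 weeks only, which fixed their direction. Over the 7 in both libraries the median was 0.52, beside 0.04 over the 119, with 3 called higher (11.8% of the 119) and 5 above the controls (41.2%). The 7 include miR-27b-3p (8346 CPM against 7089, 7269 and 6644), miR-423-3p (1966 against 1119, 1123 and 1367), miR-181b-5p, miR-351-5p and miR-532-5p. miR-133a-3p, on the same list but best known from muscle, was 1 of the 3 called higher. It was at 141 CPM, inside a control range of 87.3 to 969 and lower than in the 4 h and 8 h controls. miR-99b-5p was inside the range of its controls as well.

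The other brain classes were mixed. Of 21 miRNAs listed as neuronal, 4 were called higher (20.5% over all 156), 3 lower (10.9%), 5 were above (42.3%) and 2 below (10.9%), with a median of 0.01. The shares called were near those over all miRNAs. Those called higher were miR-19b-3p, miR-125a-5p, miR-127-3p and miR-148a-3p, of which miR-127-3p (81.5 CPM, controls 546, 167 and 50.7) and miR-148a-3p lay inside the control range. Those called lower were miR-320-3p, miR-669a-5p and miR-335-5p. Among 17 listed as astrocytic 2 were higher, 2 lower and 7 above (median -0.06), and among 14 listed as microglial 0 were higher, 1 lower and 5 above (median -0.12).

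Most defining neuronal miRNAs were at or near 0 at 2 weeks. miR-124-3p, miR-9-5p, miR-132-3p and miR-218-5p had 0 counts at 2 weeks, which at a floor of 3 counts allows up to 1.18 CPM. miR-124-3p and miR-132-3p also had 0 counts in each control, while miR-9-5p was at 59.7, 31.4 and 0.293 CPM there. miR-138-5p had 52 counts both at 2 weeks (20.5 CPM) and in the 24 h control (15.2 CPM). Of 22 textbook neuronal miRNAs counted in the series, miR-128-3p and miR-139-5p passed 50 CPM, and both lay inside the control range, at 2372 CPM (controls 914, 1749 and 2628) and 63.0 CPM (controls 64.6, 41.4 and 66.8). miR-669a-5p, named by the study for 2 weeks, was at 12.6 CPM (32 counts), and the controls held 0, 21.5 and 142 CPM. miR-541-5p, its other example of an increase, was under 50 CPM in both libraries, at 7.48 CPM at 2 weeks and at 0, 18.7 and 46.9 in the controls. Each was lower than in the 24 h control and inside the range of the 3.

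Markers of blood cells gave few calls. Of 8 leukocyte miRNAs 0 were called (31.4% over all 156), 5 were above the controls (42.3%), and the median was 0.16, beside 0.08. The 5 were miR-150-5p of lymphocytes (893 CPM against 262, 281 and 689), miR-223-3p of myeloid cells (462 against 140, 259 and 377), miR-146b-5p (570 against 317, 439 and 423), miR-21a-3p (405 against 90.5, 201 and 281) and miR-142a-5p (10490.5 against 3520, 6331 and 10304). The summed share of all 11 leukocyte miRNAs counted in the series was 2.85% of counts at 2 weeks and 1.09%, 1.87% and 2.85% in the controls in the same order. Of the 3 erythroid members, miR-144-3p was called lower, at 236 CPM against 0, 189 and 479, inside the range. Of 4 miRNAs of endothelium and platelets 0 were called, 1 was above the controls, and the median was -0.30. The 1 above was miR-126a-3p, at 388 CPM, level with the 8 h and 24 h controls (369 and 380) and above the 4 h control (99.4). Its more abundant opposite arm miR-126a-5p was at 1746 CPM against 930, 1576 and 2251, inside the range. miR-122-5p, the hepatocyte miRNA, had 55 counts at 2 weeks (21.6 CPM) and 0 counts in each control. The muscle miRNA miR-133b-3p had 2 counts (0.787 CPM) against 48.5, 20.4 and 19.3 CPM. In pooled plasma fewer cells releasing a miRNA and less of it per cell cannot be told apart.

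**Figure D4:**
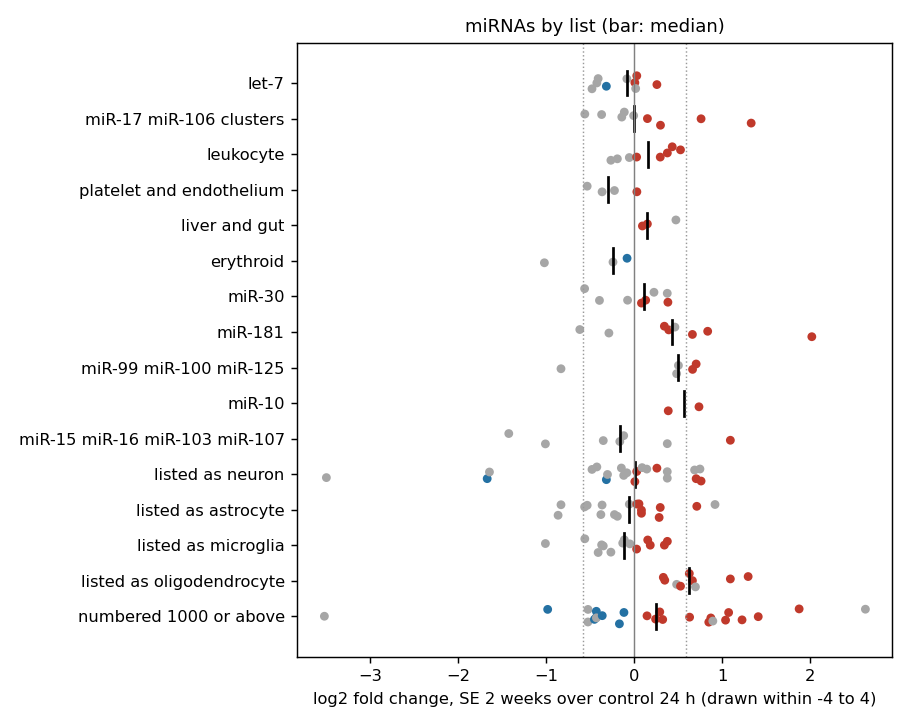
log2 fold change of each miRNA, SE at 2 weeks over control at 24 h, by family or literature class (1 point per miRNA; red above, blue below and grey inside the range of the 3 controls; black bar, median; dotted lines, 1.5-fold). The oligodendrocyte-listed miRNAs have a median of 0.62 (0.52 over the 7 at 50 CPM or more in both libraries), and the let-7 median is -0.08.

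At the edge of the choice, miR-872-5p (51.9 CPM in the control, 38.6 at 2 weeks), miR-363-3p (50.4 and 45.7) and miR-193b-3p (50.7 and 0) lay just inside it. miR-193b-3p had 173 counts in the 24 h control and 0 at 2 weeks, at least 42.9-fold lower, but it also had 0 counts in the 4 h and 8 h controls. Just outside lay miR-664-3p (49.2 CPM at 2 weeks, 17.0 in the control), miR-574-3p (40.9 and 47.8) and miR-541-5p.

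Sequence features that the choice did not use varied little with the difference. Over the 101 miRNAs with a RefSeq sequence and 50 CPM in both libraries, the log2 fold change had a Spearman rho of 0.11 with GC content and 0.17 with length, as descriptions across miRNAs of 1 library pair. The median GC content was 47.6% over all 133 sequences, 50% over the 28 called higher and 51.2% over the 14 called lower. Of the 25 miRNAs numbered 1000 or above, which entered miRBase late, 10 were called higher (20.5% over all 156), 2 lower (10.9%), 12 were above (42.3%) and 7 below (10.9%), but 12 of these 25 reached 50 CPM in 1 library only. Over the 13 in both, 1 was called higher and 0 lower, 5 were above and 6 below, and the median was -0.17, against 0.24 over all 25.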

How the data were processed

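Small RNA eluted with Ago2 from pooled mouse plasma was sequenced in 7 libraries, 1 per condition. The authors used Chimera (version not given in the sources used here) for adapter trimming, size selection and BLASTn assignment to miRBase with 2 mismatches allowed, and deposited raw read counts per mature miRNA. The submitters' processing notes also name edgeR and limma without versions. CPM was the count over the library total, for miRNAs of at least 50 CPM in either compared library. The 2-week SE library was tested against the 24 h control with the exact test of edgeR 4.0.16 (R 4.3.3) on library totals. The coefficient of variation of 0.1, unadjusted p under 0.05 and 1.5-fold were the settings of the study. The test was checked on counts simulated with the same coefficient of variation of 0.1. That check does not cover a larger spread, such as the 0.807 estimated over the control and 2-week libraries. With 1 library per condition no p-value is given, spread between animals is not measured, and Wilson intervals cover counting error only, since reads carried no molecular identifiers. Alternatives were TMM, DESeq2 1.42.0 size factors, totals without miR-486b-5p, other coefficients of variation, level limits and controls, and each control left out.

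The named miRNAs were the 5 most abundant, the 10 largest increases and decreases at 50 CPM or more in both libraries and outside the controls, those with 3 counts or fewer in 1 library, the 4 that the study names, those at the edge of the choice, and members of lists described. The miRNAs and lists were chosen with earlier results of these data known. The miRNAs 1.5-fold outside every control, and those described below as opposite to acute SE, were singled out after their values were seen. RefSeq held no mature sequence for 23 miRNAs, among them miR-143-3p, miR-320-3p, miR-378a-3p, miR-150-5p, miR-532-5p, miR-133a-3p, miR-669a-5p, miR-486b-5p, miR-5099, miR-1893, miR-1957a and miR-3960.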

Additional observations from a re-analysis of the deposited data

Results flagged for a closer look

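For 8 miRNAs the 2-week level was above all 3 controls while all 3 acute SE libraries were below all 3 controls, and this difference between time-points was not tested. miR-5112 was at 2157 CPM at 2 weeks, 1765 to 1929 CPM in the controls and 163 to 866 CPM in acute SE. miR-423-5p was at 5058 CPM at 2 weeks, against 3883 to 4493 in the controls and 2723 to 3861 in acute SE. let-7a-5p was at 6057 CPM, against 4339 to 6033 and 2933 to 3619. The margin over the highest control was thus small for let-7a-5p. Its log2 fold change over the 24 h control, 0.006, became -0.07 with TMM, -0.04 with DESeq2 size factors and -0.15 with totals without miR-486b-5p.

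The other 5 were less abundant. miR-2137, which did not stay above the controls under all 4 scalings, was at 313 CPM at 2 weeks, against 202 to 312 CPM in the controls and 46.5 to 157 CPM in acute SE. miR-425-5p was at 259 CPM, against 153 to 212 and 72.7 to 148, and miR-30e-3p was at 176 CPM, against 95.5 to 135 and 65.9 to 91.9. miR-6538 was at 100.4 CPM, against 44.2 to 74.9 and 5.92 to 32.6, and miR-1195 was at 100.4 CPM, against 48.9 to 81.3 and 9.47 to 30.9. Of the 156 miRNAs, 25 had all 3 acute libraries below the controls, and the 8 are part of these 25. Over all 156 miRNAs, 66 (42.3%) were above the controls at 2 weeks. The opposite pattern, a 2-week level below all controls with all acute libraries above, was shown by 0.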

How the results depend on the processing

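No paired analysis was possible because each condition had 1 library. The numbers of miRNAs called higher and lower (32 and 17) were 18 and 13 at a coefficient of variation of 0.2, 4 and 5 at 0.4, 15 and 11 at a fold of at least 2, 23 and 28 with totals without miR-486b-5p, 17 and 10 at 100 CPM, 113 and 86 at 10 CPM, and 139 and 100 for any count. Against the 4 h control they were 73 and 45, and against the 8 h control 40 and 27. edgeR's quasi-likelihood test against the 3 controls as 1 group, with an estimated coefficient of variation of 0.807, called 0 and 0, with 0 higher and 1 lower at unadjusted p under 0.05. The numbers above and below all controls (66 and 17) were 42 and 29 with DESeq2 size factors, 33 and 33 with totals without miR-486b-5p, and 12 and 4 at 1.5-fold. With 1 control left out they ranged from 72 to 90 and from 22 to 37. The number below was 37 without the 4 h control and 26 without the 24 h control. The causes were not tested.

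A log2 fold change is given here as reversed where its sign turned and either value passed the call rule. Under TMM, DESeq2 size factors and totals without miR-486b-5p 0 named miRNAs reversed so, while 3, 3 and 6 near 0 turned sign with neither value called, to at most 0.15 in size. Against the 8 h control 4 and against the sum of the controls 10 also turned sign uncalled, to at most 0.52 and 0.40. Reversed with a call, against the 4 h control, were let-7f-5p (0.93), miR-128-3p (1.38), miR-142a-3p (2.08), miR-144-3p (7.33), miR-144-5p (6.95), miR-15a-5p (0.31), miR-181c-3p (5.53), miR-181c-5p (1.32), miR-21a-5p (1.35), miR-24-3p (0.80), miR-335-5p (3.56), miR-363-3p (4.96), miR-669a-5p (3.10) and miR-872-5p (4.72), now higher, and miR-127-3p (-2.75), miR-133a-3p (-2.42), miR-181a-2-3p (-0.97) and miR-99b-5p (-0.73), now lower. Where a control had 3 counts or fewer, the value was computed at a floor of 3 counts and is a lower limit. Against the 8 h control they were miR-139-5p (0.61), miR-142a-3p (0.68), miR-144-3p (0.32), miR-24-3p (0.82), miR-322-5p (0.025), miR-335-5p (4.35) and miR-363-3p (2.38), now higher, and miR-127-3p (-1.04), miR-133a-3p (-2.78), miR-148a-3p (-0.41) and miR-99b-5p (-0.71), now lower. Against the sum of the controls they were miR-127-3p (-1.36), miR-133a-3p (-2.05) and miR-363-3p (1.01).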

Other observations

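Arms of the same hairpin were compared after the values were seen. Among the 156 miRNAs, 22 were the less abundant arm of a hairpin whose other arm was also present, but 9 of these had reached 50 CPM in 1 library only, and nothing is read from those. For the 13 pairs with both arms at 50 CPM or more in both libraries, 9 of the less abundant arms had a log2 fold change above that of the abundant arm. Of these 13 arms, 1 was called higher and 1 lower, with a median log2 fold change of 0.22, beside 0.04 for all 119 miRNAs in both. As an example, miR-21a-3p gave 0.52 and miR-21a-5p -0.06, and miR-144-5p gave -0.24 and miR-144-3p -1.02.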
